A study of Mus musculus with 4 samples.

Results

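mTORC1 is a protein kinase complex at the lysosome that switches on protein synthesis and growth when amino acids are plentiful. Amino acids act on it through the Rag GTPases, which work as pairs of RagA or RagB with RagC or RagD and carry the complex to the lysosomal surface. Cytosolic leucine is read by sestrins. When leucine is scarce they bind the GATOR2 complex, which leaves the GATOR1 complex free to hold RagA and RagB inactive, and leucine releases them, while folliculin sets the state of RagC and RagD. Slc7a5 encodes the light chain of an exchanger that brings leucine and other large neutral amino acids into cells. In the crypts of the small intestine, where stem cells, transit amplifying cells, Paneth cells and goblet cells lie together, mTORC1 activity in Paneth cells is known to follow nutrition.

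The 10 genes described here are Mtor and Rptor (the kinase and the raptor subunit of mTORC1), Rraga, Rragc and Rragd (RagA, RagC and RagD), Sesn1, Sesn2 and Sesn3 (the sestrins), Depdc5 (a GATOR1 subunit) and Flcn (folliculin). They were chosen by name for their place in this pathway, with earlier results of these data known. All 10 were found among the 27998 genes of the files. The data are UMI counts, in which a unique molecular identifier tags each captured transcript, of 26498 single cells from 4 libraries. Cells came from enriched small intestinal crypts of mice aged 8 weeks, and live EpCAM+ CD45- cells were sorted before a 3′ end library was made with the 10x Genomics system. Of these, 2 were labelled slc7a5 fl/fl, from mice homozygous for a floxed Slc7a5 allele without Cre, and 2 were labelled slc7a5 IEC-KO, from mice with the same floxed alleles and a Cre driven by the villin promoter, which is active in intestinal epithelium. The Cre line had a C57BL/6J background, and the mice were littermates of matched sex. The labels do not say which or how many mice went into each library, so the p-values below measure the spread between libraries, which may be technical.

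Cells were divided by the share of their UMIs on gene symbols starting with Defa, the alpha-defensins that Paneth cells secrete. The Paneth class took cells with 30% or more and held 2020, 1950, 2019 and 2336 cells (fl/fl-labelled replicates 1 and 2, then IEC-KO-labelled replicates 1 and 2, the order kept below). The class of other cells took those under 20% and held 1493, 1178, 6680 and 6090 cells. Between the limits lay 120 and 89 cells of the first pair but 1305 and 1218 of the second, and these entered neither class. Just inside the Paneth limit, from 30% to 35%, lay 115, 82, 810 and 825 cells, and just outside, from 25% to 30%, lay 66, 55, 714 and 649. Of the 7 Paneth markers on the list 6 were found in the files, and each of them, Lyz1 among them, had a higher share of UMIs in the Paneth class than in the other cells of every library. The immune list took at most 0.0037% of UMIs in either class.

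The libraries differed in depth. Total UMIs per library ranged from 87922473 to 127094508, and the lowest cell total was 8909 and 9670 UMIs in the fl/fl-labelled libraries against 3843 and 5858 in the IEC-KO-labelled ones. Median UMIs per cell in the Paneth class were 46965 and 52851.5 against 13782 and 20159. Pairs of libraries had 14 to 132 cell barcodes in common. The targeted gene, Slc7a5, was counted at 1.97 and 1.78 CPM (a gene's UMIs relative to the total of its sum, scaled as described next) in the Paneth class of the fl/fl-labelled libraries and at 5.86 and 6.39 in the IEC-KO-labelled ones. That is a log2 fold change of 1.71 (SE 0.15, adjusted p = 4.98e-09), against what the second label says. The deleted exon is the first one and the kit counts 3′ ends, so these counts do not check the deletion, and every direction given below rests on the labels. Other values also differed between the labels. The Paneth class held 55.6% and 60.6% of cells in the fl/fl-labelled libraries and 20.2% and 24.2% in the IEC-KO-labelled ones. Within it, Lyz1, which encodes lysozyme, was at 36009 and 32851 against 18450 and 14213 CPM without TMM scaling. The Paneth markers did not move together. Ang4 and Mptx2 were lower under the second label too, but Itln1, Habp2 and Mmp7 (1522 and 1364 against 3073 and 2737 CPM) were higher.

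UMIs were summed per library and class, because cells of 1 library are not replicates, and levels are given as CPM after TMM scaling of the 8 sums together. This scaling sets the typical gene equal between sums. Without it, the median gene of the Paneth class stood 0.62 higher on the log2 scale in the IEC-KO-labelled libraries, and that of the other cells 0.15 lower, so the changes below are relative to the typical gene.

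None of the 10 genes fell under the limit set for judging a gene, a mean of 20 UMIs over the 4 libraries, in either of these classes. The thinnest counts were those of Sesn2 in fl/fl-labelled other cells (34 and 23 UMIs) and of Depdc5 in the IEC-KO-labelled Paneth class (30 and 51 UMIs). Rraga had the most, 634 to 2324 UMIs in a sum. Per 100 cells of the Paneth class, the sums held 31.9 to 59.0 UMIs of Rraga but 1.49 to 4.87 of Depdc5, so single cells cannot be ordered by any of these genes.

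Sesn2 stood out. The 3 sestrins are stress-induced proteins that bind GATOR2, and SESN2 and SESN1 are the ones known to bind leucine. In the Paneth class, Sesn2 was counted 73 and 59 times in the fl/fl-labelled libraries and 153 and 307 times in the shallower IEC-KO-labelled libraries. As levels these were 1.58 and 1.25 against 6.9995 and 7.79 CPM, so the groups were far apart and each pair of replicates lay close together. The log2 fold change was 2.39 (SE 0.15, adjusted p = 5.28e-11), or 5.25-fold, the 100th largest rise among the 12492 genes tested. In other cells the levels were 1.10 and 0.87 against 4.50 and 4.89 CPM, a log2 fold change of 2.25 (SE 0.17, adjusted p = 4.04e-09). The rise was called under each of the 14 alternative settings tried in the Paneth class and of the 15 in other cells, with log2 fold changes from 2.23 to 3.50 and from 1.68 to 2.43. Cells in neither class showed it too, at 2.07 and 2.23 against 7.12 and 6.66 CPM without TMM scaling, on 4 and 3 against 99 and 120 UMIs.

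The other sestrins went the other way or did not pass the test. Sesn1, known as a p53 and FoxO target, was at 4.86 and 3.92 CPM in the fl/fl-labelled Paneth class and at 2.15 and 2.31 in the IEC-KO-labelled one. Both values of the second pair lay below both of the first, as for 35.1% of all genes, with a log2 fold change of -0.97 (SE 0.16, adjusted p = 6.57e-05), lost only with library size alone (-0.35, adjusted p = 0.0852). In other cells its levels were 4.59 and 4.17 against 2.83 and 2.65 CPM, again without overlap (33.4% of genes lower without overlap, 33.5% higher), and the log2 fold change was -0.68 (SE 0.13, adjusted p = 0.000348). Sesn3, a FoxO-induced sestrin, was at 4.19 and 4.75 against 3.52 and 3.20 CPM in the Paneth class. Its log2 fold change there of -0.43 (SE 0.14, adjusted p = 0.0214) was lost under 6 of the 14 alternatives, and with class limits of 40% and 10% it was 0.014. Of these, 2 left out a library: without slc7a5 fl/fl replicate 2 the value was -0.34 (adjusted p = 0.145), and without slc7a5 IEC-KO replicate 2 it was -0.34 (adjusted p = 0.178). In other cells Sesn3 was at 3.82 and 4.09 against 3.93 and 4.01 CPM, and the 95% interval of its log2 fold change ran from -0.23 to 0.27.

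**Figure D1:**
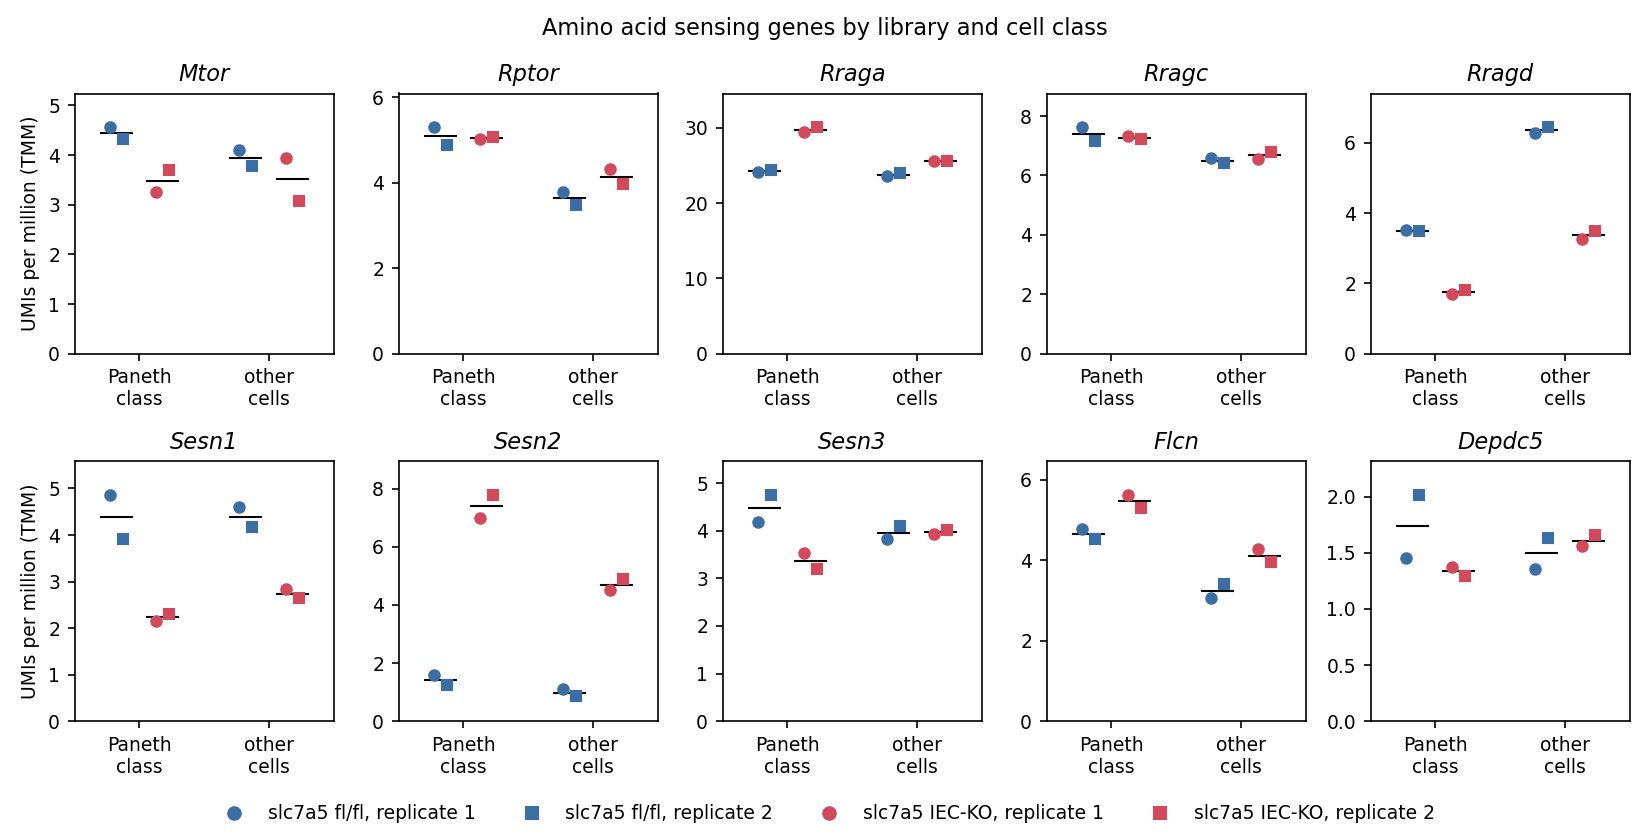
CPM (TMM over the 8 sums, vertical axis from 0, scaled per gene) of the 10 genes in the Paneth class and other cells. Each point is 1 library (blue slc7a5 fl/fl, red slc7a5 IEC-KO; circles replicate 1, squares replicate 2) and black bars are means of 2 libraries; Sesn2 rises from 1.58 and 1.25 to 6.9995 and 7.79 in the Paneth class, while Rragd and Sesn1 are lower in red in both classes.

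The Sesn2 gene (ENSMUSG00000028893) is a minus-strand gene of chromosome 4 that spans 132492032 to 132510501 in GRCm38. As the member with the largest change, it is shown here with the stretch before its start. The run below holds 205 bases of the RefSeq promoter window (GRCm38.p6, chr4:132510502-132510706, minus strand, 5′ to 3′), and the 45 bases nearest to the RefSeq start were left out because GENCODE M21 places an exon there. Mtor, Rraga, Rragc and Rragd lie on chromosome 4 too, Rptor and Flcn on 11, Sesn1 on 10, Sesn3 on 9 and Depdc5 on 5, and all 10 genes are annotated as protein coding. Capitals in the run mark ATTGG, the reverse complement of CCAAT, the box that NF-Y binds.

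Sesn2: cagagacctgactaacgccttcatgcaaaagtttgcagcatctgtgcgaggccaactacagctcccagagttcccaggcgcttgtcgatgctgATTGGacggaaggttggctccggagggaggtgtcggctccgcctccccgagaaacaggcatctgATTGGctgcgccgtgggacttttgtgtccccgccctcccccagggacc

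The 2 matches begin 157 and 93 bases before the RefSeq start. CCAAT on either strand was found in the 250 bases before the start in 33.85% of all 32851 RefSeq promoters, and in 6 of the 11 windows of the members, those of Mtor, Rragc, Sesn1 (both windows), Sesn2 and Sesn3. TGATGNAA, an element bound by ATF4 with C/EBP partners, was found on either strand in 3.45% of all promoters and in none of the 11 windows. CACGTG, a sequence that TFEB and its relatives bind, was in 6.02% of all promoters and in that of Rragc, and TGACGTCA, a cyclic AMP response element, in 1.55% and in that of Flcn. No 2 of these motifs overlapped in the members' windows. Such a match is a description of letters, and nothing was measured at these windows.

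Among the Rag GTPases, the 2 that changed went in opposite directions in the Paneth class. Rraga encodes RagA, the partner through which GATOR1 acts. Its levels in the Paneth class were 24.1 and 24.4 CPM in the fl/fl-labelled libraries and 29.5 and 30.0 in the IEC-KO-labelled ones, with replicates far closer than the groups. The log2 fold change was 0.29 (SE 0.07, adjusted p = 0.00212), a rise of 1.23-fold that was called under 13 of 14 alternatives and lost with cells thinned to 3000 UMIs (adjusted p = 0.258). In other cells, where Rraga was at 23.6 and 24.0 against 25.6 and 25.5 CPM, the log2 fold change of 0.11 (SE 0.07, adjusted p = 0.215) did not pass, with a 95% interval from -0.03 to 0.25.

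Rragd encodes RagD, which with RagC forms the side of the pair that folliculin acts on, and which is itself a known target of TFEB. It was at 3.52 and 3.50 CPM in the fl/fl-labelled Paneth class and at 1.69 and 1.83 in the IEC-KO-labelled one (162 and 165 against 37 and 72 UMIs). The log2 fold change was -0.98 (SE 0.17, adjusted p = 8.32e-05). Other cells held more of it, 6.28 and 6.44 against 3.26 and 3.48 CPM, and the log2 fold change of -0.90 (SE 0.11, adjusted p = 2.64e-06) was of like size. The Paneth-class value was called under 11 of the 13 alternatives in which Rragd was tested. It lost its call with class limits of 40% and 10% (-0.78, adjusted p = 0.0545) and with library size only (-0.36, adjusted p = 0.0915). With cells thinned to 3000 UMIs, Rragd did not enter the test in the Paneth class, and the call of other cells was lost (adjusted p = 0.06003).

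Rragc, which encodes RagC, was counted at like levels in all libraries. Its values in the Paneth class were 7.62 and 7.15 against 7.32 and 7.23 CPM, and in other cells 6.60 and 6.40 against 6.55 and 6.80, so the groups overlapped in both classes. The 95% intervals of its log2 fold change, -0.24 to 0.19 and -0.15 to 0.24, leave room for changes of about that size in either direction.

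The GATOR1 subunit Depdc5, which takes part in inactivating RagA, was the least counted member. In the Paneth class it was at 1.45 and 2.01 CPM in the fl/fl-labelled libraries and 1.37 and 1.29 in the IEC-KO-labelled ones. Its log2 fold change of -0.39 (SE 0.23, adjusted p = 0.186) has a 95% interval from -0.87 to 0.08, which at this depth leaves falls of up to 0.87 undetected. In other cells the interval ran from -0.28 to 0.53.

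Flcn, whose product activates the RagC and RagD side, was at 4.77 and 4.54 against 5.63 and 5.30 CPM in the Paneth class. The 2 labels did not overlap, as was the case for 34.5% of all genes in this direction, and the log2 fold change of 0.22 (SE 0.12, adjusted p = 0.164) missed the threshold. In other cells the levels were 3.07 and 3.41 against 4.28 and 3.96 CPM, and the log2 fold change of 0.35 (SE 0.13, adjusted p = 0.0392) passed it narrowly. That call was kept under only 6 of the 15 alternatives.

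The mTORC1 subunits themselves did not pass the test in either class. Mtor was at 4.56 and 4.33 CPM in the fl/fl-labelled Paneth class and 3.25 and 3.70 in the IEC-KO-labelled one, a log2 fold change of -0.33 (SE 0.14) with an adjusted p of 0.0626 and an unadjusted 95% interval from -0.63 to -0.04. In other cells the libraries overlapped, at 4.11 and 3.79 against 3.95 and 3.08. Rptor was at 5.29 and 4.88 against 5.03 and 5.07 CPM in the Paneth class, with an interval from -0.27 to 0.25 around a log2 fold change of -0.01. In other cells it was at 3.79 and 3.49 against 4.32 and 3.96 (log2 fold change 0.19, SE 0.12, adjusted p = 0.267).

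Counted together, 2 of the 10 genes rose and 3 fell in the Paneth class, where 39.9% of the 12492 genes tested passed (20.1% higher, 19.8% lower). In other cells 2 rose and 2 fell, where 33.6% of 12377 genes passed (17% higher, 16.7% lower). The members' counts are thus close to those of all genes. The median log2 fold change of the 10 was -0.18 in the Paneth class and 0.08 in other cells, and that of all genes tested was 0.00 in both.

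**Figure D2:**
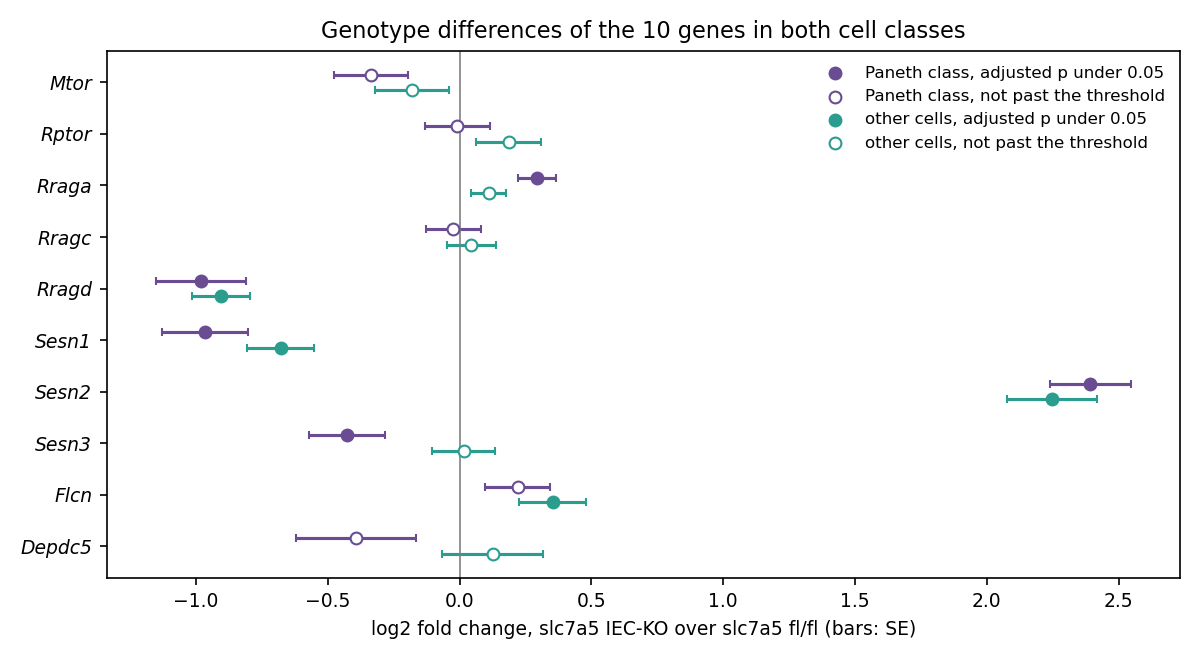
Log2 fold change of slc7a5 IEC-KO over slc7a5 fl/fl libraries (horizontal axis, bars SE, 2 libraries per label) for each of the 10 genes in the Paneth class (purple) and other cells (green). Filled points have an adjusted p under 0.05: Sesn2 lies at 2.39 and 2.25, Rragd at -0.98 and -0.90, and the 2 classes lie on the same side of 0 for every gene with a filled point in both.

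Whether the effect differed between the classes was tested with 1 term for the difference, over the 8 sums with library as a block. None of the 10 genes passed, where 22.3% of 13039 genes did. At an unadjusted p under 0.05 there were 2 members, Sesn3 (difference in log2 fold change -0.43, SE 0.17, adjusted p = 0.0504) and Rraga (0.19, SE 0.08, adjusted p = 0.0509), and DESeq2 called 0. The rise of Sesn2 differed by 0.14 (95% interval -0.36 to 0.63) and the fall of Rragd by -0.08 (-0.45 to 0.30). So a change called in 1 class alone, such as those of Rraga, Sesn3 and Flcn, is not shown to be particular to it. With library size only, 8 of the 10 passed, where 9617 of 13039 genes did, because the median gene then differed by 0.75 between the classes.

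The other cells are a mixture, and their makeup moved with the label. As shares of all UMIs of other cells, the list of cell cycle genes took 0.207% and 0.211% in the fl/fl-labelled libraries and 0.0986% and 0.103% in the IEC-KO-labelled ones, and the list of enterocyte genes took 0.482% and 0.527% against 0.286% and 0.257%. The enteroendocrine list went up, from 0.0482% and 0.0524% to 0.148% and 0.134%. Its largest part was Gip, at 281 and 262 against 1123 and 970 CPM without TMM scaling. Chgb, Gcg and Pyy were higher too, while Chga was at 18.2 and 16.4 against 23.1 and 18.7 CPM and Cck overlapped between the labels. Other cells were therefore divided further by their UMI shares on marker lists, which hold none of the 10 genes, into cell-cycle-marker cells (521, 422, 979 and 932 cells), enterocyte-marker cells (149, 114, 375 and 318) and goblet-marker cells (634, 456, 3957 and 3578). A further 189, 186, 1369 and 1262 other cells entered none of these sets, with 11.5% to 13.6% of their UMIs on Defa symbols. The genotype difference was not tested in them alone. The names of the sets stand for marker shares above a limit, and some cells lie close to each limit.

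Rragd and Sesn1 differed widely between these cells, in comparisons added after the data were seen. Rragd was at 44.0, 45.1, 38.3 and 40.8 CPM in enterocyte-marker cells, at 10.99, 12.1, 7.69 and 8.55 in cell-cycle-marker cells and at 3.76, 3.41, 1.48 and 2.20 in goblet-marker cells (TMM over the 12 sums). The 3 sets did not overlap. Enterocyte-marker cells exceeded goblet-marker cells by 4.13 on the log2 scale (SE 0.16, adjusted p = 3.01e-15), or 17.5-fold, where 54.6% of 10608 genes passed (27.6% higher, 27% lower). They exceeded cell-cycle-marker cells by 2.13 (SE 0.13, adjusted p = 1.48e-11), where 60.9% passed and 29.4% were higher. Sesn1 had the same order, with 24.0, 24.6, 18.5 and 18.9 CPM in enterocyte-marker cells, 6.62, 5.34, 3.65 and 5.25 in cell-cycle-marker cells and 4.91, 4.69, 3.69 and 3.03 in goblet-marker cells. Here the last 2 sets overlapped, and their difference of 0.41 (SE 0.16, adjusted p = 0.0340) lost its call without slc7a5 fl/fl replicate 1 (0.39, adjusted p = 0.0874) and without slc7a5 IEC-KO replicate 2 (0.19, adjusted p = 0.443).

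Other members were spread more evenly. Sesn2 was lower in cell-cycle-marker than in goblet-marker cells (log2 difference -0.96, SE 0.19, adjusted p = 0.000167, where 27.1% of genes were lower). Its levels were 1.13, 1.94, 4.17 and 4.67 CPM against 2.29, 1.07, 9.32 and 9.48. In slc7a5 fl/fl replicate 2 it was thus higher in cell-cycle-marker cells, on 12 against 5 UMIs. Rraga was lower in enterocyte-marker cells, 28.4 to 40.6 CPM, than in goblet-marker cells, 47.3 to 48.7 (log2 difference -0.53, SE 0.10, adjusted p = 9.48e-05). Sesn3 was higher in cell-cycle-marker cells, at 8.34 to 11.4 CPM, than in goblet-marker cells, at 5.95 to 7.46 (0.64, SE 0.14, adjusted p = 0.000464, where 58.2% of genes passed, 31.1% higher and 27.1% lower). Flcn was lower in cell-cycle-marker cells, 3.65 to 5.35, than in goblet-marker cells, 6.87 to 8.52 (-0.72, SE 0.17, adjusted p = 0.000958). Sesn3 and Depdc5 were lower in enterocyte-marker than in cell-cycle-marker cells (-0.96 and -1.29, adjusted p = 0.00161 and 0.00646, where 31.6% of genes were lower). Their enterocyte-marker means of 10 and 3 UMIs lie under the limit for judging. Rptor and Rragc passed in none of the 3 comparisons.

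**Figure D3:**
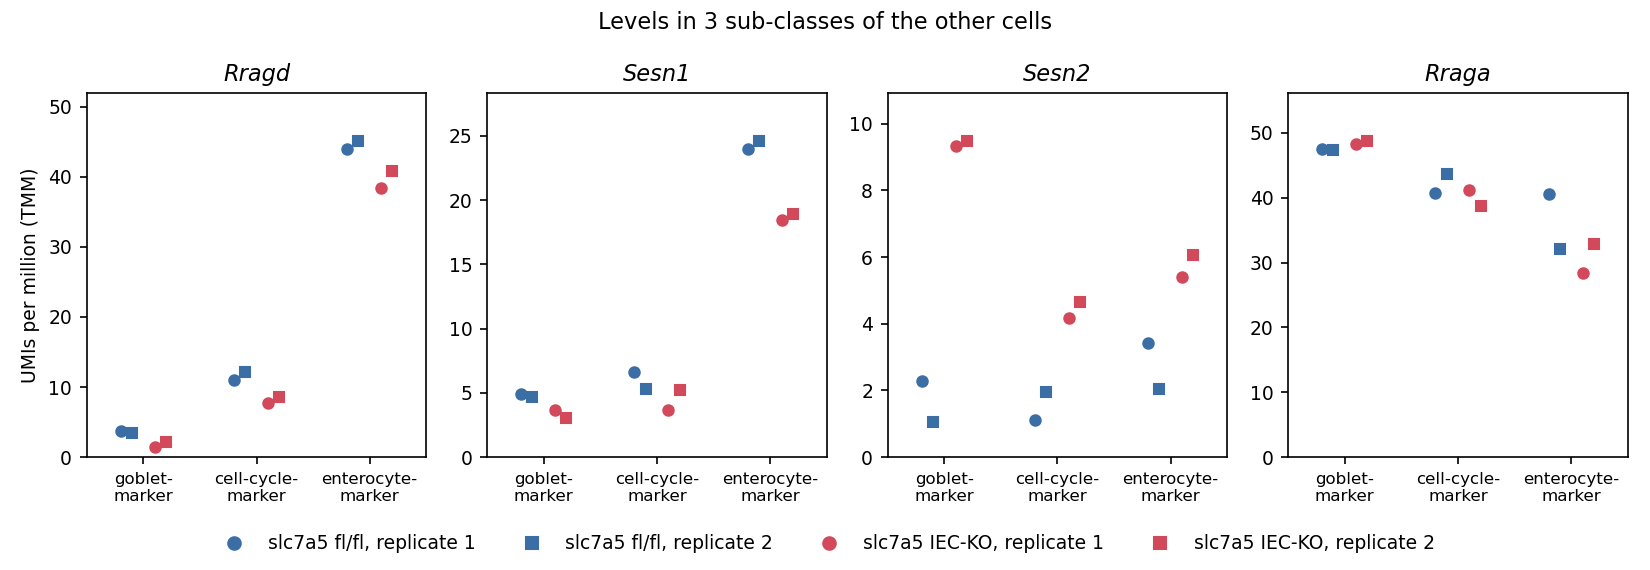
CPM (TMM over the 12 sums, vertical axis from 0) of Rragd, Sesn1, Sesn2 and Rraga in goblet-marker, cell-cycle-marker and enterocyte-marker cells, 1 point per library (blue slc7a5 fl/fl, red slc7a5 IEC-KO; circles replicate 1, squares replicate 2). Rragd and Sesn1 are highest in enterocyte-marker cells (38.3 to 45.1 and 18.5 to 24.6). Sesn2 is higher in red in goblet-marker and cell-cycle-marker cells, where blue points rest on 5 to 14 UMIs, and its enterocyte-marker counts are too low to judge.

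Within these cells, the genotype difference of Sesn2 was still large. In goblet-marker cells it was counted 14 and 5 times against 202 and 263 times, a log2 fold change of 2.47 (SE 0.26, adjusted p = 1.41e-07), where 19.4% of 11244 genes passed and 9.97% rose. In cell-cycle-marker cells the counts were 8 and 12 against 32 and 48, a log2 fold change of 1.59 (SE 0.34, adjusted p = 0.00722), where 4.1% of 10588 genes passed and 2.64% rose. Without slc7a5 fl/fl replicate 1 this second value was 1.22 (adjusted p = 0.138). In enterocyte-marker cells Sesn2 had 6 and 3 against 12 and 16 UMIs and is too low to judge. None of the 8 members tested passed there by edgeR at the adjusted threshold, and 2.68% of 7941 genes did (1.9% higher, 0.781% lower). At an unadjusted p under 0.05 none did either.

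The falls of Rragd and Sesn1 over all other cells were mostly not called within these cells, and whether the sets differed was not tested. Rragd fell in goblet-marker cells by 0.88 on the log2 scale (SE 0.31, adjusted p = 0.0476, 23 and 16 against 32 and 61 UMIs), where 9.43% of genes fell. That call was lost with library size only and without either library labelled slc7a5 fl/fl or slc7a5 IEC-KO replicate 1, with values from -0.95 to -0.65. In cell-cycle-marker cells its log2 fold change was -0.46 (SE 0.17, adjusted p = 0.170) and in enterocyte-marker cells -0.16 (95% interval -0.50 to 0.19). Sesn1 passed in none of the 3 sets, with log2 fold changes of -0.47, -0.36 and -0.36 and upper 95% limits of 0.04, 0.16 and 0.11. Enterocyte-marker and cell-cycle-marker cells made up less of the other cells in the IEC-KO-labelled libraries, and the part of this in the falls of both genes was not tested beyond these values. The other members passed in none of the 3 sets, and in enterocyte-marker cells Mtor, Rptor, Sesn2, Sesn3, Flcn and Depdc5, with means of 3 to 15.8 UMIs, are too low to judge.

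The 2 classes of a library come from 1 suspension and can be compared within it. On the scale that sets the typical gene equal, Rptor, Sesn2 and Flcn were higher in the Paneth class under both labels. In the fl/fl-labelled libraries the log2 differences were 0.48 (SE 0.12, adjusted p = 0.000238), 0.52 (SE 0.22, adjusted p = 0.0360) and 0.53 (SE 0.13, adjusted p = 0.000141), where 58.5% of 13039 genes passed and 27.7% were higher. In the IEC-KO-labelled ones they were 0.30 (SE 0.10, adjusted p = 0.0108), 0.66 (SE 0.09, adjusted p = 2.03e-10) and 0.41 (SE 0.10, adjusted p = 0.000343), where 50.2% passed and 24.7% were higher. With library size only all 6 of these values turned. The 3 genes were then called lower in the Paneth class under both labels, as were 12063 and 11790 of 13039 genes. With cells thinned to 3000 UMIs none of the 6 was called. Of the 14 alternatives, Rptor, Sesn2 and Flcn were called higher under 11, 6 and 11 within the fl/fl label and under 9, 12 and 10 within the IEC-KO label. Within the fl/fl label, leaving out fl/fl replicate 1 lost Sesn2 (0.52, adjusted p = 0.228) and Flcn (0.41, adjusted p = 0.0560), and leaving out fl/fl replicate 2 lost Sesn2 (0.52, adjusted p = 0.136). Within the IEC-KO label, leaving out IEC-KO replicate 2 lost Rptor (0.23, adjusted p = 0.289). Rraga passed under the second label, by 0.22 (SE 0.05, adjusted p = 6.75e-05), and not under the first (0.03, SE 0.06). Rragd was lower in the Paneth class under both, by -0.86 (SE 0.11, adjusted p = 1.47e-11) and -0.93 (SE 0.14, adjusted p = 6.19e-09), where 30.7% and 25.5% of genes were lower.

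These directions hold for that scale alone, except for Rragd. Defa symbols took 36.8% to 44.0% of UMIs in the Paneth class and 5.70% to 6.64% in other cells. By library size the median gene was 1.94 and 1.17 lower on the log2 scale in the Paneth class. All 10 genes were then called lower there under both labels, as were 12063 and 11790 of all 13039 genes tested. As plain shares of UMIs, members in the Paneth class were at 13.8% to 71.8% of their level in other cells of the same library. Rragd had the lowest values, 15.2%, 13.8%, 22.8% and 23.6%. Cell cycle genes, which mature Paneth cells should lack, were at 12.3%, 11.6%, 21.2% and 23.3% as a list. Singly, Birc5 was at 14.96%, 14.1%, 23.2% and 27.3%, Top2a at 11.1%, 9.92%, 17.7% and 20.2%, and Ube2c at 8.05%, 7.51%, 17.3% and 16.8%. The enterocyte list was at 27.1%, 23.5%, 24.4% and 31.2%. Of its genes, Apoa1 was at 34.2%, 30.8%, 28.8% and 38.3%, and Fabp2 at 23.4%, 21.1%, 22.3% and 25.6%. Lists of other cell types were higher, with the stem list at 32.2% to 64.0%, the tuft list at 43.4% to 66.0% and the enteroendocrine list at 45.9% to 121%. Rragd lay close to the cell cycle list, above Top2a and Ube2c, and below the enterocyte list in every library. The other 9 members lay above both the cell cycle and the enterocyte list in every library, at 23.9% to 71.8%. Mtor, Rraga, Rragc, Sesn1 and Sesn3 lay below the single enterocyte gene Apoa1 in both fl/fl-labelled libraries. Of the 9, Sesn2 in the IEC-KO-labelled libraries (68.2% and 71.8%) lay above all 5 lists. The others, like Sesn2 in the fl/fl-labelled libraries, lay below at least 1 of the 3 higher lists. Sesn1, at 28.7%, 23.9%, 33.3% and 39.3%, was among the members closest to the enterocyte list in the fl/fl-labelled libraries. Within the Paneth class, the enterocyte list took 0.131% and 0.124% of UMIs in the fl/fl-labelled libraries and 0.06965% and 0.0801% in the IEC-KO-labelled ones. The cell cycle list took 0.0255% and 0.0245% against 0.0210% and 0.0239%. The part of this in the Paneth-class falls of Rragd and Sesn1 was not tested. How much of any member's Paneth-class count is RNA of other cells was not tested.

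**Figure D4:**
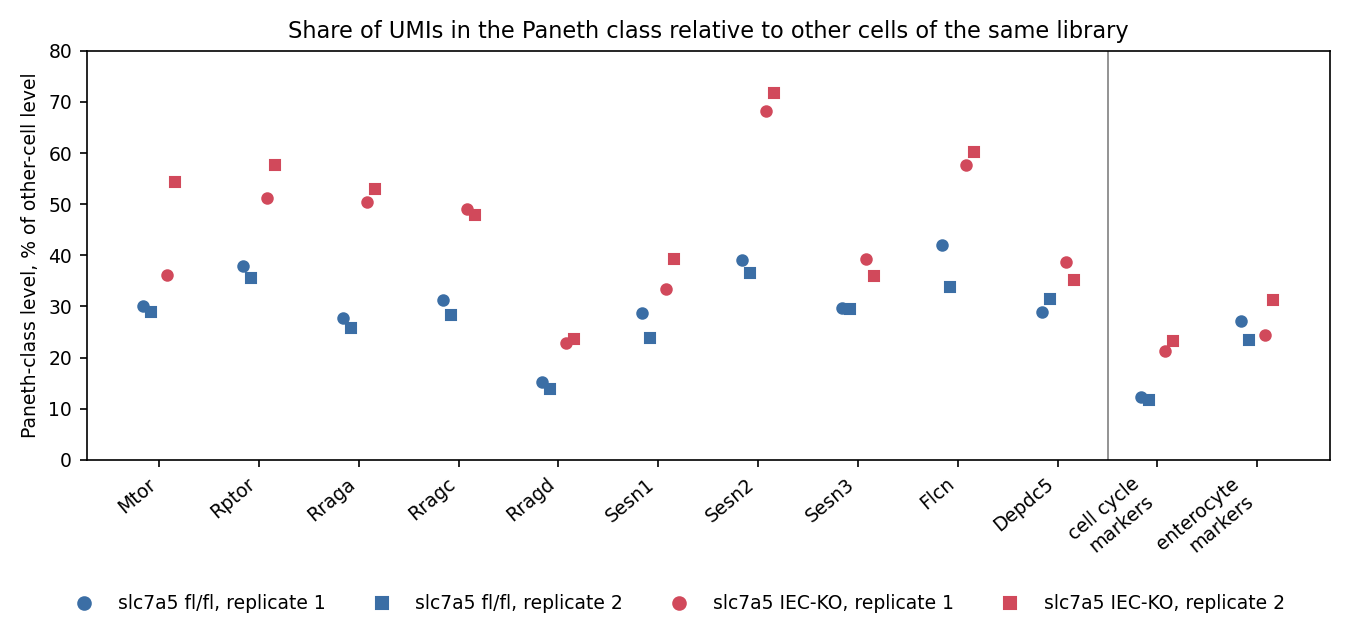
Level in the Paneth class as a percentage of the level in other cells of the same library (vertical axis from 0, plain shares of UMIs), for the 10 genes and, right of the line, the summed cell cycle and enterocyte marker lists; 1 point per library, colours and shapes as before. Rragd (13.8% to 23.6%) lies close to the cell cycle markers (11.6% to 23.3%), and Sesn2 reaches 68.2% and 71.8% in the IEC-KO-labelled libraries.

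Around the 10 genes, 51 other genes of the pathway were listed by role, also with earlier results of these data known. Of these, 49 had enough counts to be tested. Rragb, which encodes the alternative to RagA, had at most 3 UMIs in any sum and was one of the pair left out, with Gatsl3. In the Paneth class 14 of them rose and 4 fell, where 20.1% of all genes tested rose and 19.8% fell. In other cells likewise 14 rose and 4 fell, where 17% and 16.7% of all genes did. The counts by list below have these same shares as their background. Most of the rises were in 2 lists. All 4 genes of amino acid entry rose in both classes. The list holds Slc3a2, Slc38a2, Slc1a5 and the targeted gene Slc7a5 itself, whose counts do not check the deletion. Slc3a2, the heavy chain that pairs with Slc7a5, had log2 fold changes of 1.02 (SE 0.07) and 1.05 (SE 0.07). Of the 8 stress inputs 5 rose in the Paneth class, and in other cells 4 rose and 1 fell. Trib3, a pseudokinase that restrains AKT, went from 1.13 and 0.83 to 108 and 89.6 CPM in the Paneth class (log2 fold change 6.65, SE 0.13). Ddit3, which encodes the stress factor CHOP, went from 14.1 and 11.96 to 161 and 132 (3.48, SE 0.10), and Atf4, the transcription factor of the amino acid response, rose by 1.07 (SE 0.07). Adjusted p-values of Slc3a2, Trib3, Ddit3 and Atf4 were 2.55e-10 or lower. Sesn2 is itself a known ATF4 target.

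Each of the other lists held fewer calls than those of amino acid entry and stress inputs, though some changes were as large. Of 6 tested genes of the Rag and Ragulator list, which anchor the Rags, Lamtor3 rose in the Paneth class (0.45, SE 0.08, adjusted p = 7.31e-05) and Lamtor2 and Lamtor4 in other cells (0.20 and 0.18, adjusted p = 0.0196 and 0.0360). Of the 5 GATOR2 genes Sec13, also part of the COPII coat and nuclear pore, fell in both classes (-0.57, SE 0.07, and -0.39, SE 0.06) and the other 4 passed in neither. Of the other 2 GATOR1 genes Nprl2 fell in the Paneth class (-0.34, SE 0.12, adjusted p = 0.0287). Of the 4 KICSTOR genes, which hold GATOR1 at the lysosome, Itfg2 rose in the Paneth class (0.54, SE 0.11, adjusted p = 0.000595), and the 2 folliculin partners passed in neither class. Of 3 tested cytosolic sensors Lars, the leucyl-tRNA synthetase, rose in both (0.87, SE 0.07, and 0.79, SE 0.07) and Gatsl2, of the arginine sensor family, fell in the Paneth class (-1.08, SE 0.31, adjusted p = 0.00827). Of the 3 other mTORC1 subunits listed, the inhibitory Deptor rose in both (0.91, SE 0.08, and 0.61, SE 0.07). Akt1s1 rose in other cells only, from a mean of 21.6 CPM in the fl/fl-labelled libraries to 24.3 in the IEC-KO-labelled ones. Tsc2, which restrains Rheb, fell in the Paneth class (-0.31, SE 0.11, adjusted p = 0.0303). Rhebl1, of the same list, fell in other cells, from a mean of 1.53 CPM in the fl/fl-labelled libraries to 0.79 in the IEC-KO-labelled ones. Among 7 outputs only Eif4ebp1, the translation repressor that mTORC1 phosphorylates, rose, by 1.53 (SE 0.08) in the Paneth class and 2.01 (SE 0.07) in other cells, and Rps6kb1 fell in other cells (-0.26, SE 0.08, adjusted p = 0.0132). These are RNA levels, and the activity of mTORC1 was not measured in these files.

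**Figure D5:**
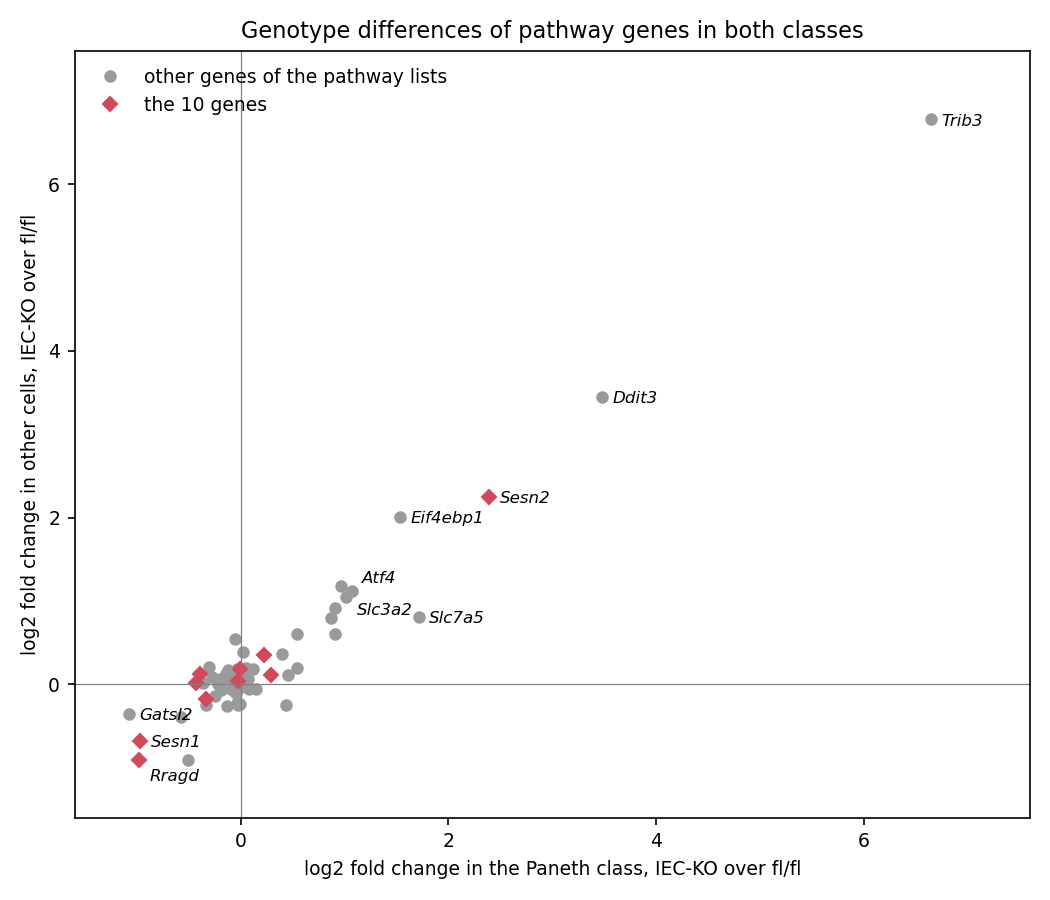
Log2 fold change of slc7a5 IEC-KO over slc7a5 fl/fl in the Paneth class (horizontal axis) and in other cells (vertical axis) for the 49 tested pathway genes (grey circles) and the 10 genes (red diamonds). Trib3 (6.65 and 6.78) and Ddit3 lie far from the rest, and Sesn2 (2.39 and 2.25) comes next with Eif4ebp1 near it. Both axes come from the same 4 libraries.

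The genes with the pattern most like that of each member called in the Paneth class were sought among 6387 genes over the 8 sums (Pearson r of log2 levels, a description over 8 points that share libraries). For Sesn2 these were Ero1l (0.998), Sars and Ndrg1. For Rragd, which was higher in enterocyte-marker than in cell-cycle-marker cells, they were Ccnb1 (0.998), Birc5 and Gmnn, all known from the cell cycle. For Sesn1 they were Dynll2, Coro1c and Decr1, for Rraga Bex1, Uri1 and Soat2, and for Sesn3 Fam32a, Rab1a and mt-Co1.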

How the data were processed

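Single-cell RNA-seq was done on 4 libraries of sorted crypt cells, 2 per label. The deposited files hold raw UMI counts per gene and cell, which the authors made with Cell Ranger (2.1.1 per the submitters' notes) on mm10, with no normalization; the values were used as deposited and no doublet caller was run. Here, UMIs were summed per library and class (Defa symbols 30% or more of UMIs, or under 20%). The edgeR quasi-likelihood test (edgeR 4.0.16, R 4.3.3; TMM, filterByExpr) was fitted across all genes with Benjamini-Hochberg adjustment over all genes tested and a threshold of 0.05; 95% intervals are unadjusted. Fits had genotype only, or library as a block where both classes or several sets of cells entered. Goblet-marker cells had 8% or more of UMIs on the goblet list and under 10% on Defa symbols, cell-cycle-marker cells 0.2% or more on the cell cycle list, and enterocyte-marker cells 0.5% or more on the enterocyte list, taken in the order cell cycle, enterocyte, goblet. Alternatives were library size only, TMM without Defa and ribosomal protein genes, DESeq2 1.42.0, other count filters, a replicate block, class limits of 40% and 10%, cells thinned to 3000 UMIs, cells with at least 10000 UMIs, leaving out the 5% of cells with most UMIs, and leaving out each library. A limit of 2% of UMIs on Paneth markers in other cells and the comparisons between sets of other cells were added after the data were seen. The scripts were tested on simulated data.

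The 10 genes and all lists were chosen with earlier results of these data known. Besides them, the text names Slc7a5, pathway genes that passed the test, marker genes and, for members called in the Paneth class, the 3 genes with the most similar profile. Counting intervals are not given for summed levels, whose error is the spread between libraries. Gene positions are from GENCODE M21 and promoter windows from RefSeq (GRCm38.p6).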

Additional observations from a re-analysis of the deposited data

How the results depend on the processing

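With 2 libraries per label, a gene's own spread rests on few degrees of freedom, and the test also draws on the spread of other genes. Leaving out a library leaves 1 that is assumed to vary like the others. For the genotype in the Paneth class, 4990 genes were called, against 9249 with library size only (8795 higher, 454 lower), 3123 by DESeq2, 2662 with class limits of 40% and 10%, 1731 with cells thinned to 3000 UMIs and 3950 to 4556 without a library. Members called there were 5, against 3 with the stricter limits, 2 when thinned and 4 to 5 without a library. In other cells 4163 genes were called (2492 by DESeq2, 2229 when thinned, 2841 to 4258 without a library; with library size only, 1172 higher and 3787 lower) and 4 members (2 when thinned, 3 to 4 without a library). For the difference of the effects, 2906 genes were called (9617 with library size only, 876 by DESeq2, 1105 with the stricter limits, 761 when thinned, 1770 to 2305 without a library, lowest without slc7a5 fl/fl replicate 1) and 0 members (8 with library size only; 1, Sesn3, with TMM without Defa and ribosomal protein genes, with no filter and with at least 10 UMIs in every library). For the classes within the fl/fl label, 7623 genes were called (12213 with library size only, 4652 by DESeq2, 2908 when thinned, 5720 to 7730 without a library) and 4 members (10, 2 and 1 under the first 3, 2 to 4 without a library). Within the IEC-KO label, 6552 genes were called (12004 with library size only, 3315 by DESeq2, 4243 with the stricter limits, 3179 when thinned, 4648 to 6526 without a library) and 5 members (10, 2, 3 and 3, and 4 to 5). In goblet-marker, cell-cycle-marker and enterocyte-marker cells 2181, 434 and 213 genes were called (1288 to 1951, 302 to 859 and 133 to 282 without a library), and members 2 (1 with library size only, 1 to 2 without a library), 1 (0 to 1) and 0. Between cell-cycle-marker and goblet-marker cells 6172 of 10608 genes and 8 members were called (4 to 7 members without a library). Between enterocyte-marker and cell-cycle-marker cells 6462 of 10608 genes and 5 members were called (3 to 5 members).

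Directions turned mainly with library size only, which by its construction shifts all genes of a comparison together. In the Paneth class Rptor was then at 0.61, Rragc at 0.60, Sesn3 at 0.20, and Mtor and Depdc5, called in neither fit, at 0.28 and 0.23, and Sesn3 was at 0.014 with the stricter limits. In other cells Rraga, Rragc, Sesn3 and Depdc5, called in neither fit, were at -0.04, -0.11, -0.13 and -0.02 with library size only. The difference of effects turned for Mtor (0.64), Rptor (0.58), Rragc (0.69), Rragd (0.69), Sesn1 (0.48) and Flcn (0.64), and for Sesn3 (0.33) and Depdc5 (0.27), called in neither fit. Within the fl/fl label the class difference turned for Mtor (-1.76), Rptor (-1.44), Rraga (-1.90), Rragc (-1.74), Sesn1 (-1.92), Sesn2 (-1.39, and -1.38 when thinned), Sesn3 (-1.75), Flcn (-1.40) and Depdc5 (-1.72), and within the IEC-KO label for Mtor (-1.12), Rptor (-0.87), Rraga (-0.95), Rragc (-1.05), Sesn2 (-0.51) and Flcn (-0.76). Rraga was at 0.058 between cell-cycle-marker and goblet-marker cells. The labels do not say whether the shared replicate numbers pair the libraries, and 2 libraries per label cannot settle it. Same-numbered deviations had a correlation of -0.00733 in the Paneth class and 0.0914 in other cells. With the replicate block, 5 members and 5111 genes were called in the Paneth class and 4 members and 4723 genes in other cells. The causes of the other changes were not tested.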
